A study of Mus musculus with 20 samples.

Results

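The genes of retinol storage and retinoid metabolism followed here in mouse liver were Rbp4, Lrat, Rdh7, Rdh9, Rdh11, Rdh16, Aldh1a1, Aldh1a7 and Cyp26a1. They were chosen by name, with earlier results of these data known. Every probe set whose platform annotation gave exactly 1 of these symbols was used. This gave 11 probe sets for the 9 genes, of 45037 probe sets and 18193 named genes in all. The livers came from males of the inbred strain C57BL/6J at 8 weeks of age. For 4 weeks, 10 of them had been fed a low-fat diet, in which 10% of the energy was fat, and the other 10 a high-fat diet with 45%. All mice had first eaten the low-fat diet for 1 week and were fasted for 16 h before they were killed, and each mouse was measured on its own Affymetrix array. High-fat groups that also received a maple syrup extract are not analysed here.

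The liver takes up dietary vitamin A, stores it as retinyl esters, mainly in stellate cells, and returns retinol to the blood bound to a carrier protein made by hepatocytes. Dehydrogenases of the RDH family convert retinol and retinal into each other, aldehyde dehydrogenases turn retinal into retinoic acid, which acts through nuclear receptors, and CYP26 enzymes break retinoic acid down. The gene of CYP26A1 is itself induced by retinoic acid. The comparison asks whether high-fat feeding changed the transcripts of these steps.

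The deposited value of a probe set is a score whose scale the sources used here do not name, and it varied very little between arrays: over the 20 arrays a probe set had a median SD of 1.17e-05, and the SD was under 0.001 for 98.2% of them. A difference in score is therefore not read as a fold change. Sizes are standardised differences, in which the low-fat mean is subtracted from the high-fat one and the result is put in units of the SD pooled over both diets. Their 95% intervals use the noncentral t distribution. As a measure that uses only order, each high-fat mouse was also set against each low-fat mouse, and the share of these 100 pairs with the high-fat value lower or higher is given. Array medians ran from 6.567 to 6.5672, 0 pairs of arrays were identical, and no detection call came with the values, so it is not known which probe sets were above background. The hepatocyte genes Alb and Cps1 had low-fat means of 14.8 and 13.6.

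Pieces of the upstream sequence of the members that lie side by side or vary together are shown first. They are the 120 bases before the annotated start, from RefSeq on GRCm38.p6, and all 9 members had at least 1 such window. These bases lie before the transcribed part, so their likeness does not show whether the array's probes confuse the transcripts, which was not tested. Counts of identical bases come from the best local alignment, with no background beside them. Aldh1a1 and Aldh1a7 are adjacent coding genes of chromosome 19, and 104 of 110 aligned bases (94.5%) were identical between Aldh1a7 and one of the annotated starts of Aldh1a1. Capitals mark the bases that are identical in the alignment.
Aldh1a7 (chr19:20727557-20727676, - strand): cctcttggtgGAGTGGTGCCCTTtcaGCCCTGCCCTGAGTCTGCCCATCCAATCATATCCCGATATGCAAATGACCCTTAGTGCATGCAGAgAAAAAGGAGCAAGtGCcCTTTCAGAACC
Aldh1a1 (chr19:20601848-20601967, + strand): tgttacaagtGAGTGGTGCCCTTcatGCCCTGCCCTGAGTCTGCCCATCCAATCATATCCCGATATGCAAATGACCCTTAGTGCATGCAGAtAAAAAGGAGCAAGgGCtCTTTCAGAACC
Rdh9 and Rdh16 are adjacent coding genes of chromosome 10, in a run of neighbours whose order in the gene table is Rdh1, Rdh9, Rdh16, Rdh19, Rdh16f2 and Rdh7. Rdh9 and Rdh16 shared 51 of 70 aligned bases (72.9%), and Rdh9 and Rdh16f2 shared 31 of 39 (79.5%). Rdh9 also shared 40 of 54 aligned bases (74.1%) with Rdh1 and 29 of 31 (93.5%), over a shorter stretch, with one of the annotated starts of Rdh7, which are not shown. In these lines the capitals mark bases of Rdh9 identical in Rdh16, and bases of the other genes identical in Rdh9.
Rdh9 (chr10:127776285-127776404, + strand): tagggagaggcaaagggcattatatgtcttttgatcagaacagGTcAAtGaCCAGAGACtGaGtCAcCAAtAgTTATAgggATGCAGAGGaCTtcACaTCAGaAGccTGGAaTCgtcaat
Rdh16 (chr10:127801033-127801152, + strand): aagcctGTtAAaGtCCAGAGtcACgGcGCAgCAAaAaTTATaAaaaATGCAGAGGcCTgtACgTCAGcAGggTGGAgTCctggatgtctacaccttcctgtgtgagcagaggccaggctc
Rdh16f2 (chr10:127866356-127866475, + strand): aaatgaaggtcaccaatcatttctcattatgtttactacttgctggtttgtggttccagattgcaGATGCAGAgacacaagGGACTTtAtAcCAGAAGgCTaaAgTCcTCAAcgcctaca
In Cyp26a1 the capitals mark a match to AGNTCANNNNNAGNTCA, a direct repeat spaced by 5 bases of the kind that retinoic acid receptors bind. It lies 32 to 16 bases before the start, on the strand opposite to the gene, where it reads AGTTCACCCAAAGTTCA.
Cyp26a1 (chr19:37697688-37697807, + strand): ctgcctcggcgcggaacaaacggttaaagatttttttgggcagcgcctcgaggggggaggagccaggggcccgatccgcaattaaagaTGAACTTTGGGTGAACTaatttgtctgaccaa
This was the only match among the 13 windows of the 9 members, each of 300 bases with 250 before and 50 after the start. Both strands were searched, and 67 of 32851 such windows (0.204%) held the motif. The repeats spaced by 1 base (AGNTCANAGNTCA, in 0.219% of windows) and by 2 bases (AGNTCANNAGNTCA, in 0.107%) had no match in the members. A match describes the letters in the window and does not show that a receptor binds there.

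On the high-fat diet no member passed the test. By limma, with Benjamini-Hochberg adjustment over all probe sets, 0 of 11 member probe sets had an adjusted p under 0.05, against 1043 of 45037 probe sets (2.32%; 1.2% lower and 1.11% higher). The standardised difference was below 0 for 8 of the 11 and above 0 for 3, with a median of -0.15 against 0.04 over all probe sets. At an unadjusted p under 0.05 there were 2 members, Rdh9 and Rdh7, both lower, against 15.1% of all probe sets (7.28% lower and 7.86% higher). By the exact rank sum test 3 members reached an unadjusted p under 0.05, namely those 2 and Rdh16 (13.5% of all probe sets), and 0 passed after adjustment (1.75% of all probe sets). Of all probe sets past the threshold, 542 were lower and 501 higher on the high-fat diet. This balance depended on scaling: after quantile normalisation 3784 were lower and 380 higher, and after centring arrays on their medians 38220 were lower and 396 higher. After quantile normalisation 2 of the 8 member probe sets tested passed (Rdh9 and Cyp26a1), against 4164 of 42361 probe sets. After median centring 6 of 11 passed, against 38616 of 45037. These member calls were all lower on the high-fat diet.

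**Figure D1:**
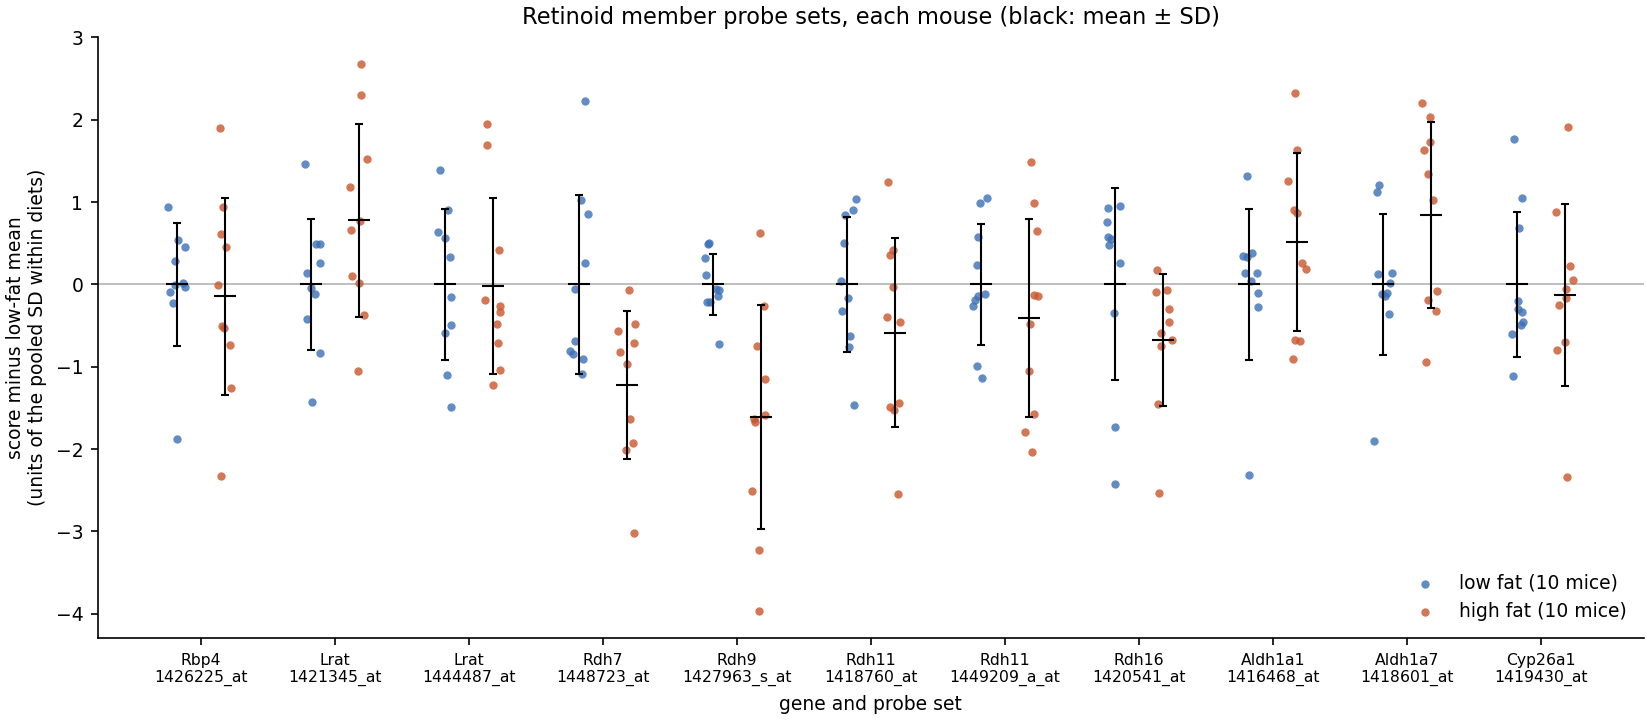
Score of each of the 11 member probe sets in each mouse, as the distance from the low-fat mean in units of the pooled SD within diets (vertical axis), for 10 low-fat (blue) and 10 high-fat (orange) mice, with the mean ± SD in black. For Rdh9, 8 of 10 high-fat mice lie below all low-fat mice. For Rbp4 and Cyp26a1 the diets overlap, with 1 high-fat mouse below and 1 above all low-fat mice in each. For the Lrat probe set at -0.02 they overlap too, with 2 high-fat mice above all low-fat mice.

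The 3 members with an unadjusted rank sum p under 0.05 were RDH enzymes of the chromosome 10 run, which are microsomal short-chain dehydrogenases that act on retinol and on steroids. Rdh9 was the member with the smallest p. Its score ran from 9.19766 to 9.1989 with a median of 9.19832 in the low-fat mice, and from 9.19438 to 9.19901 with a median of 9.19675 in the high-fat mice. Of the high-fat mice 8 lay below the lowest low-fat mouse, and 1, replicate 6, lay above the highest, so the diets overlapped through 2 mice. The standardised difference was -1.61 (95% interval -2.62 to -0.58, n = 10 per diet), the high-fat mouse was lower in 89% of pairs, and the limma adjusted p was 0.0598. The high-fat mice were also more spread, with an SD of 0.00138 against 0.000375 in the low-fat mice; this difference in spread was not tested.

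Rdh9 stood close to the threshold on both sides of it. With 1 probe set per gene, where 3.49% of 18193 genes passed, its adjusted p was 0.0483. Without high-fat replicate 6 the standardised difference was -2.18 and the adjusted p 0.0187, and without high-fat replicate 8 the adjusted p was 0.0435. In the other 18 fits that left out 1 array it was between 0.0606 and 0.0995. With the poly-A spike-in controls as a covariate the adjusted p was 0.143. The only probe set of Rdh9 carries the suffix that marks probes matching several transcripts, so a neighbouring RDH gene may add to its score, and the part of that was not tested.

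**Figure D2:**
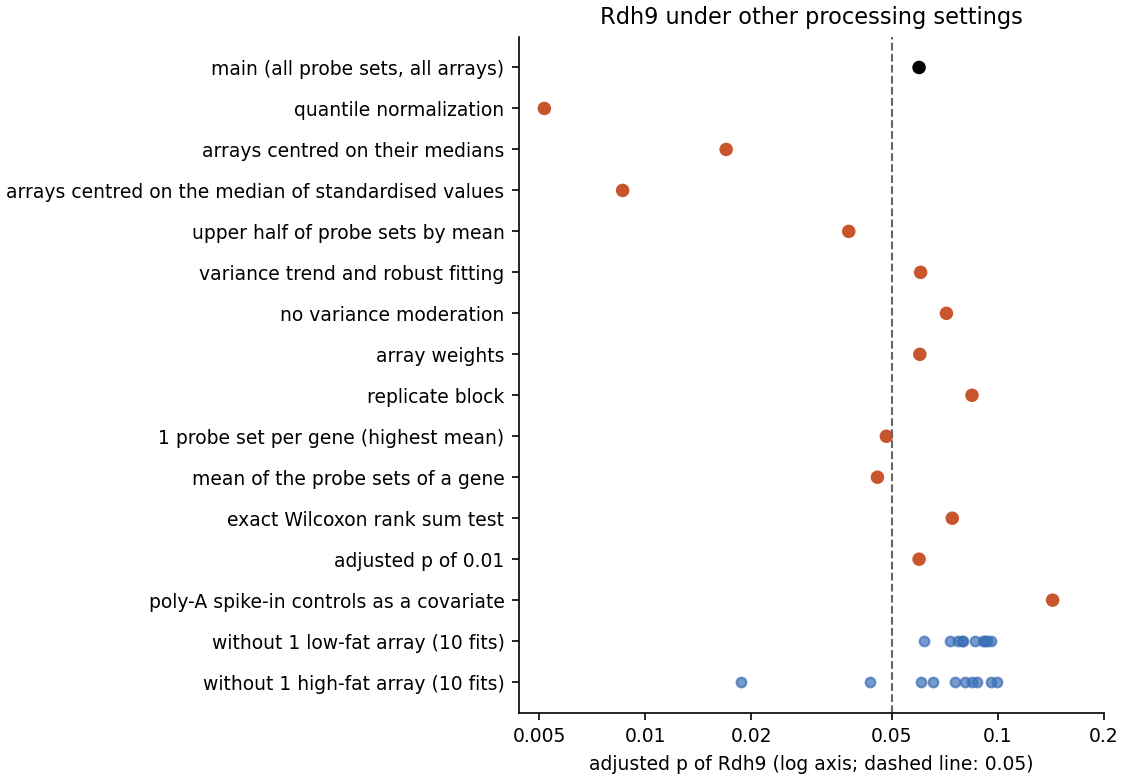
Adjusted p of Rdh9 (horizontal log axis, dashed line at 0.05) in the main fit (black), under 13 other settings (orange) and in 20 fits that each left out 1 array (blue). Points lie on both sides of the line, from 0.00517 after quantile normalisation to 0.143 with the spike-in covariate.

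For Rdh7 the low-fat scores ran from 13.427385 to 13.427396 with a median of 13.427387, and the high-fat scores from 13.427379 to 13.427388 with a median of 13.427386. Of the high-fat mice 9 lay below the low-fat median and 4 below the lowest low-fat mouse. The standardised difference was -1.22 (95% interval -2.17 to -0.25), and the high-fat mouse was lower in 77% of pairs, but the limma adjusted p was 0.212. For Rdh16 the low-fat scores ran from 8.99928 to 9.00142 with a median of 9.00114, and the high-fat scores from 8.99921 to 9.00093 with a median of 9.00048. All 10 high-fat mice lay below the low-fat median, yet 2 low-fat mice were also low, so the ranges overlapped over most of their length. The standardised difference was -0.67 (95% interval -1.57 to 0.24), with the high-fat mouse lower in 78% of pairs and a limma adjusted p of 0.508. In the 20 fits that left out 1 array, the standardised difference of Rdh16 ran from -1.15 to -0.51. The first was without low-fat replicate 9, the lowest low-fat mouse (adjusted p = 0.225). The last was without high-fat replicate 3, the lowest high-fat mouse (adjusted p = 0.642). Another probe set, annotated to Rdh16 together with a pseudogene, was left out because it has more than 1 symbol.

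Within the run of RDH genes on chromosome 10 the only gene to pass was Rdh16f2, a further family member that lies between Rdh16 and Rdh7, and it rose on the high-fat diet. Its score ran from 9.25846 to 9.26045 with a median of 9.25947 in the low-fat mice, and from 9.26012 to 9.26258 with a median of 9.26156 in the high-fat mice. Of the high-fat mice 9 lay above all low-fat mice, with a standardised difference of 2.66 (95% interval 1.41 to 3.87, limma adjusted p = 0.00302). Rdh1, chosen here for its place in the run after its value was seen, stood at 0.19 (-0.69 to 1.06), and Rdh19 had no probe set with its symbol alone. The difference between Rdh16f2 and its neighbours was not itself tested.

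Rdh11 encodes a microsomal enzyme that reduces retinal and had 2 probe sets. They stood at -0.59 (95% interval -1.48 to 0.32, limma adjusted p = 0.578; 0.14 after quantile normalisation) and -0.41 (-1.29 to 0.48, adjusted p = 0.721; -1.22 after quantile normalisation, adjusted p = 0.0779). In units of the pooled SD from the low-fat mean, the first ran from -1.46 to 1.04 in low-fat mice and from -2.55 to 1.25 in high-fat mice, and the second from -1.14 to 1.05 and from -2.03 to 1.48. In both, 3 high-fat mice lay below and 1 above all low-fat mice. Across the 20 mice the deviations of both probe sets from the diet means moved together (Pearson r = 0.83, Spearman rho = 0.83, a description of probe sets that share a target).

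The aldehyde dehydrogenase genes stood on the other side of 0. Aldh1a1 encodes a cytosolic enzyme that oxidises retinal to retinoic acid. Its score ran from 12.75833 to 12.75957 with a median of 12.75917 in the low-fat mice, and from 12.75881 to 12.75991 with a median of 12.75931 in the high-fat mice. The diets overlapped, with 2 high-fat mice above all low-fat mice. High minus low fat came to 0.52 SD (95% interval -0.38 to 1.40, limma adjusted p = 0.634).

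Aldh1a7 is the gene adjacent to Aldh1a1 whose upstream sequence is shown above. Its score ran from 10.89361 to 10.89532 with a median of 10.89463 in the low-fat mice, and from 10.89414 to 10.89586 with a median of 10.8953 in the high-fat mice. Of the high-fat mice 5 lay above all low-fat mice, and the other 5 lay within the low-fat range. High minus low fat came to 0.84 SD (95% interval -0.08 to 1.75, limma adjusted p = 0.379), with the high-fat mouse higher in 68% of pairs. For both genes replicate 5 was the highest and replicate 10 the lowest high-fat mouse.

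Rbp4, the plasma carrier of retinol, showed no difference beyond the spread between mice. In units of the pooled SD from the low-fat mean its score ran from -1.88 to 0.94 in the low-fat mice and from -2.33 to 1.90 in the high-fat mice, with a high-fat median of -0.26. High minus low fat came to -0.15 SD (95% interval -1.02 to 0.73, limma adjusted p = 0.972). The pooled SD of Rbp4 was only 5.96e-07. A prior that limma shares over probe sets raises so small an SD, which makes a call by limma less likely. Without this moderation the adjusted p of Rbp4 was 0.918, and by the exact rank sum test it was 0.919. Ttr, whose protein transthyretin binds the retinol carrier in plasma, fell on the high-fat diet. Of its 4 probe sets 2 passed by limma, with standardised differences of -2.46 (95% interval -3.63 to -1.26, adjusted p = 0.00562) and -1.96 (-3.02 to -0.86, adjusted p = 0.0258). The other 2 stood at -3.12 (-4.43 to -1.76, adjusted p = 0.241) and -2.51 (-3.69 to -1.30, adjusted p = 0.261). These 2 have very small SDs, which limma's shared prior raises. Without that moderation their adjusted p-values were 0.00133 and 0.00669, and by the exact rank sum test they were 0.00602 and 0.00995. In the first of them the diets did not overlap, with high-fat scores from 14.5343076 to 14.5343084 and low-fat scores from 14.5343086 to 14.5343107.

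Lrat encodes the enzyme that esterifies retinol for storage and is made in liver mainly by stellate cells. One probe set ran from 6.308194 to 6.308493 with a median of 6.308347 in low-fat mice and from 6.308234 to 6.308618 with a median of 6.308416 in high-fat mice. All its scores lay below the lowest array median, 6.567. Its standardised difference was 0.78 (95% interval -0.14 to 1.68, limma adjusted p = 0.425), and 3 high-fat mice lay above all low-fat mice. The other stood at -0.02 (-0.90 to 0.86, adjusted p = 0.991), from -1.49 to 1.38 SD in low-fat and from -1.23 to 1.94 SD in high-fat mice. The 2 probe sets differed in their diet difference although they moved together within diets (Pearson r = 0.68, Spearman rho = 0.70, over 20 mice). In whole liver, the number of stellate cells and the Lrat RNA per cell cannot be told apart. Of 33 probe sets of 13 other genes listed as stellate cell markers, 1 passed and 0 fell, against 2.32% of all probe sets passing. It was a probe set of Rgs5 that rose (2.24, limma adjusted p = 0.0101). Its low-fat mean score, 6.569, lay close to the lowest array median, and its suffix marks probes that can match several transcripts. The other Rgs5 probe sets did not pass, at 1.54 (adjusted p = 0.0723), 1.19 (adjusted p = 0.181) and 0.98 (adjusted p = 0.289). Their low-fat means were 7.35, 9.72 and 7.02. Of the 33 probe sets 8 had an unadjusted limma p under 0.05, against 15.1% of all probe sets. Over all probe sets 47.8% were below 0, whereas 28 of the 33 were above 0, with a median of 0.45. The mean of these 33 probe sets in SD units ran from -0.55 to 0.58 in low-fat mice and from -0.23 to 1.33 in high-fat mice, and no marker was listed at 0. The part of the stellate markers in the Lrat values was not tested.

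Cyp26a1, which breaks down retinoic acid and carries the repeat shown above, did not pass the test. Its low-fat mean score, 6.5225, lay below the lowest array median, 6.567, and whether it was above background is not known. The Cyp26a1 score ran from -1.11 to 1.77 SD in the low-fat mice and from -2.34 to 1.91 SD in the high-fat mice. The high-fat mouse was lower in 46% of pairs. High minus low fat came to -0.13 SD (95% interval -1.002 to 0.75, limma adjusted p = 0.930).

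**Figure D3:**
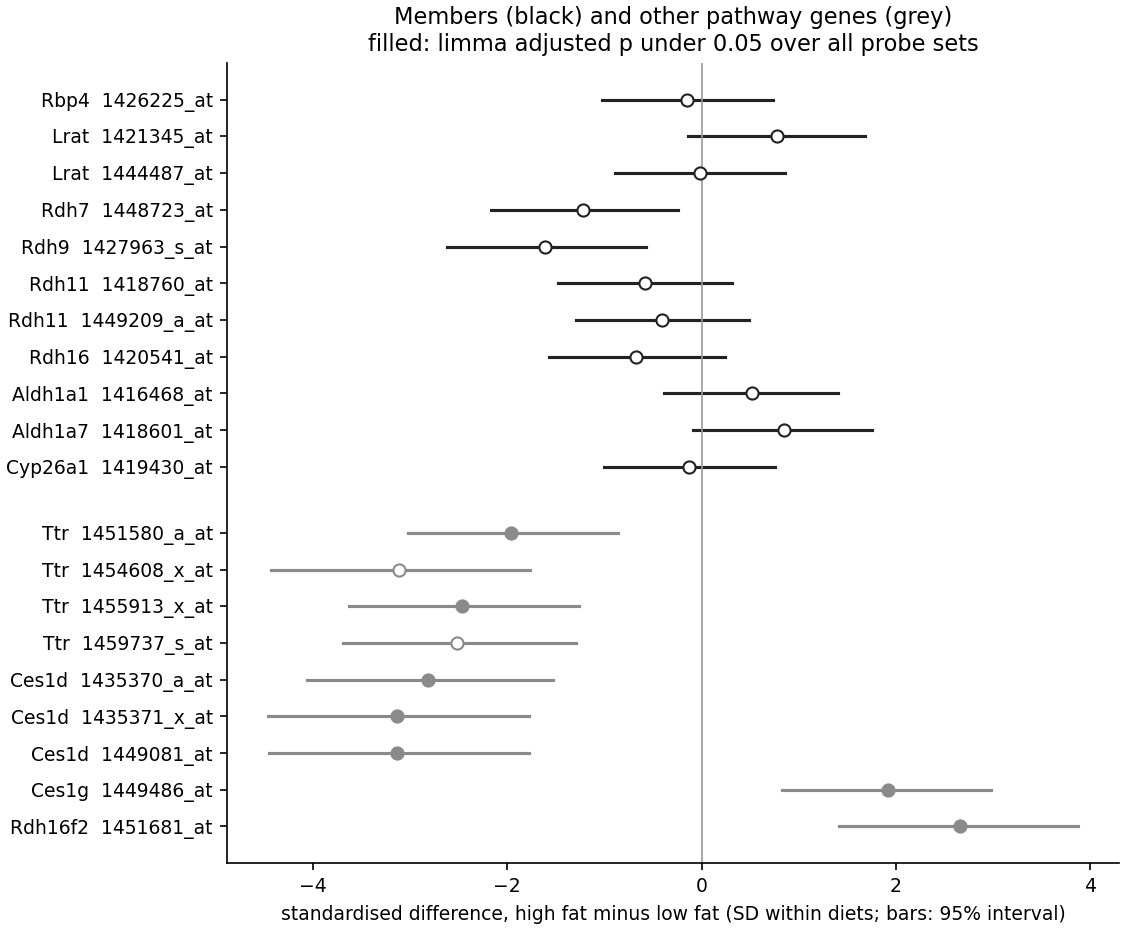
Standardised difference, high fat minus low fat, with its 95% interval for the 11 member probe sets (black) and for every probe set of the 4 other pathway genes with a probe set past the threshold (grey). Filled points passed a limma adjusted p of 0.05 over all probe sets, and no member is filled. The intervals of Rdh9 and Rdh7 lie below 0.

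Other genes of the pathway were read from 7 lists with 103 probe sets of 57 genes. By limma 7 probe sets passed (6.80%, against 2.32% of all probe sets), 5 lower and 2 higher, but they belong to only 4 genes: Ces1d and Ttr fell, and Ces1g and Rdh16f2 rose. With 1 probe set per gene 3 of 57 passed (5.26%, against 3.49% of all genes). These were Ces1d, Ces1g and Rdh16f2. At an unadjusted limma p under 0.05 there were 28 of the 103 probe sets (27.2%, against 15.1% of all probe sets). The lists were chosen with earlier results of these data known, so a share above that of all probe sets can follow from the choice.

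Among genes of retinyl ester storage and hydrolysis, 3 probe sets fell and 1 rose of 14. An unadjusted limma p under 0.05 was found for 8 of the 14, against 15.1% of all probe sets. All 3 probe sets of Ces1d, a carboxylesterase that hydrolyses triglycerides and retinyl esters, fell. They stood at -2.81 (95% interval -4.06 to -1.53, adjusted p = 0.00213), -3.14 (-4.46 to -1.78, adjusted p = 0.000744) and -3.13 (-4.45 to -1.77, adjusted p = 0.000745). The diets did not overlap in 2 of them, with scores from 11.76072 to 11.76516 in low-fat and from 11.75711 to 11.76027 in high-fat mice for the first. Ces1g, a related carboxylesterase, rose (1.92, 95% interval 0.83 to 2.98, adjusted p = 0.0242), from a median of 8.7286 to 8.7404, with 8 high-fat mice above all low-fat mice. By the exact rank sum test Ces1g had an adjusted p of 0.0517. Sequence shared between carboxylesterase genes can mix their scores, which was not tested. Lpl, a lipase of lipoproteins, stood at -1.57 (adjusted p = 0.0668) and -1.51 (adjusted p = 0.0782) in its 2 probe sets.

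Of the 14 probe sets for retinoid binding and uptake, the 2 of Ttr were the only ones to pass. An unadjusted limma p under 0.05 was found for 5 of the 14, against 15.1% of all probe sets. Of the 21 for the conversion of retinol and retinal, only Rdh16f2 passed (6 at an unadjusted p under 0.05). Rdh5 (1.24, adjusted p = 0.159), Sdr16c5 (1.19, adjusted p = 0.180) and Rdh10 (-1.19, adjusted p = 0.181) came next. Of the 10 for synthesis and breakdown of retinoic acid 0 passed, with Aldh1a2 at 0.85 (adjusted p = 0.374) and Aldh8a1 at -0.85 (adjusted p = 0.379), and 0 of these 10 had an unadjusted p under 0.05. Of the 7 for carotene cleavage and retinol saturation 0 passed (1 at an unadjusted p under 0.05), and all 7 were below 0, led by Retsat, which saturates retinol (-0.95, adjusted p = 0.313). Of the 9 for the nuclear receptors 0 passed (2 at an unadjusted p under 0.05), with one probe set of Rxra at -0.96 (adjusted p = 0.304) and Rxrb at 0.97 (adjusted p = 0.306).

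Of 28 probe sets of genes that respond to retinoic acid 0 passed by limma, and 6 had an unadjusted p under 0.05, against 15.1% of all probe sets. Pck1, a gluconeogenic enzyme, stood at 1.36 in one probe set (adjusted p = 0.118), whose low-fat mean score was only 5.52. Its probe sets with higher low-fat means, 12.9 and 10.3, stood at -0.20 and 0.42. Tgm2, a transglutaminase, stood at -1.28 (adjusted p = 0.145), -1.26 (adjusted p = 0.152) and -1.24 (adjusted p = 0.160) in 3 of its probe sets. The list had a median of -0.06, and 14 of its 28 probe sets were below 0.

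Other cell type and zone lists were read beside these values. For comparison, 2.32% of all probe sets passed by limma and 15.1% had an unadjusted limma p under 0.05. Of 20 hepatocyte probe sets 2 fell, both of Ttr, and 0 rose (5 at an unadjusted p under 0.05). Of 11 bile duct probe sets 1 rose, that of Krt23 (2.09, adjusted p = 0.0154). By limma 0 passed of 15 Kupffer cell probe sets (0 at an unadjusted p under 0.05), of 14 endothelial (1), of 13 lymphocyte (0) and of 3 adipocyte probe sets (0). Among genes of the zone around the central vein 0 of 15 passed (6 at an unadjusted p under 0.05), with a median of 0.71 and Slc1a2 at 1.66 (adjusted p = 0.0520). Of 8 probe sets of the zone around the portal vein 2 rose, both of Pigr, the receptor that carries immunoglobulins across cells (3.48, adjusted p = 0.000288; 2.40, adjusted p = 0.00606). In that list 4 of 8 probe sets were below 0 and 4 had an unadjusted p under 0.05, with a median of 0.07, and both probe sets of Hsd17b13 stood at -1.38 (adjusted p = 0.111) and -1.30 (adjusted p = 0.141).

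Within diets, members were compared across the 20 mice as deviations from the diet mean, with 1 probe set per gene and 36 pairs of genes. Aldh1a1 and Aldh1a7 were the only pair to pass (Pearson r = 0.79, permutation p = 0.00027, adjusted over the 36 pairs 0.00972; Spearman rho = 0.68, permutation p = 0.00346, adjusted 0.125). The correlation was 0.63 within the low-fat and 0.89 within the high-fat mice. Low-fat replicate 5 and high-fat replicate 5 were the 2 mice farthest from the median of Aldh1a1. Without them r was 0.65 (permutation p = 0.0171, adjusted 0.205), and the pair no longer passed after adjustment. Leaving them out also lowers the number of mice to 18 and narrows the range. Because the 2 genes are close copies, probes that bind both transcripts can also give such a relation, and this was not tested.

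**Figure D4:**
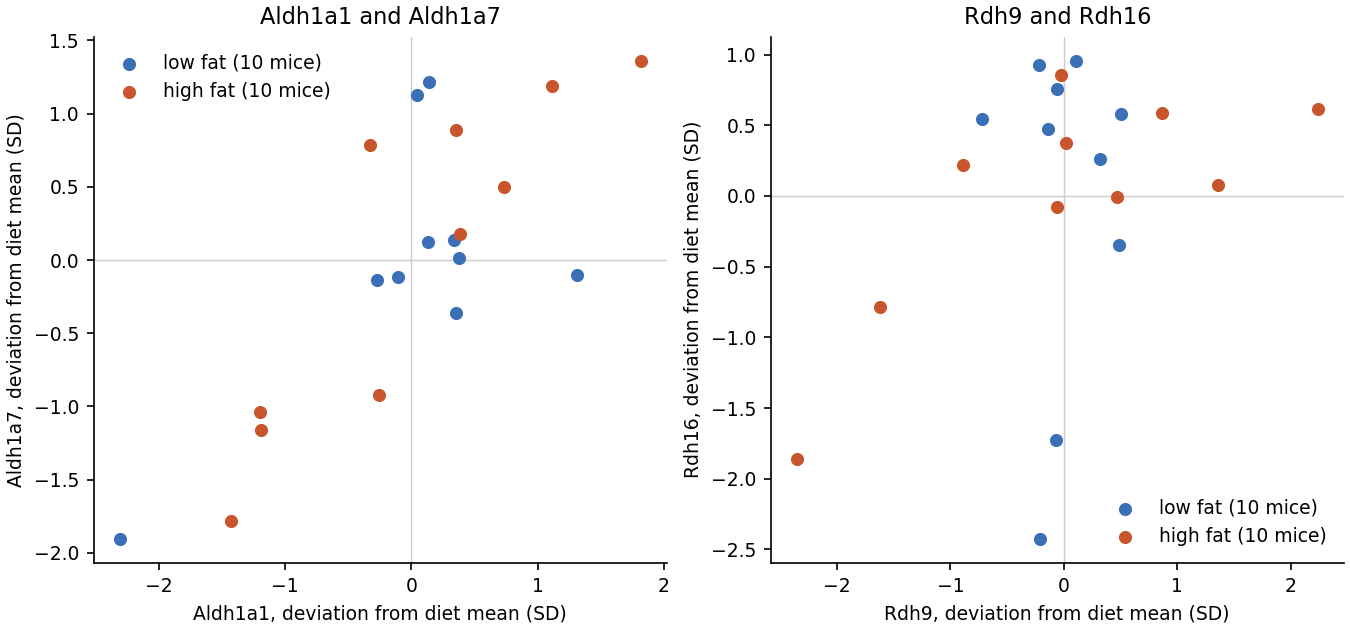
Deviation of each mouse from its diet mean, in SD within diets, for Aldh1a1 against Aldh1a7 (left) and Rdh9 against Rdh16 (right), with low-fat mice in blue and high-fat mice in orange. On the left the points rise together in both diets, and on the right they do so in the high-fat mice, with r = 0.76 against 0.06 in the low-fat mice, a difference that was not tested.

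The neighbours Rdh9 and Rdh16 had r = 0.43 (permutation p = 0.0206, adjusted 0.260; Spearman rho = 0.30, adjusted 0.472), and 0.19 without the 2 mice farthest from the median of Rdh9. Rbp4 and Lrat gave the lowest coefficient of the 36 pairs, r = -0.53 (permutation p = 0.0222, adjusted 0.260; rho = -0.44, adjusted 0.365), and -0.30 without 2 mice. Rdh9 and Cyp26a1 had r = -0.52 (permutation p = 0.0336, adjusted 0.260; rho = -0.54, adjusted 0.217), with 0.05 within the low-fat and -0.70 within the high-fat mice, and this pair did not pass either. Positive coefficients were found in 16 of the 36 pairs.

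**Figure D5:**
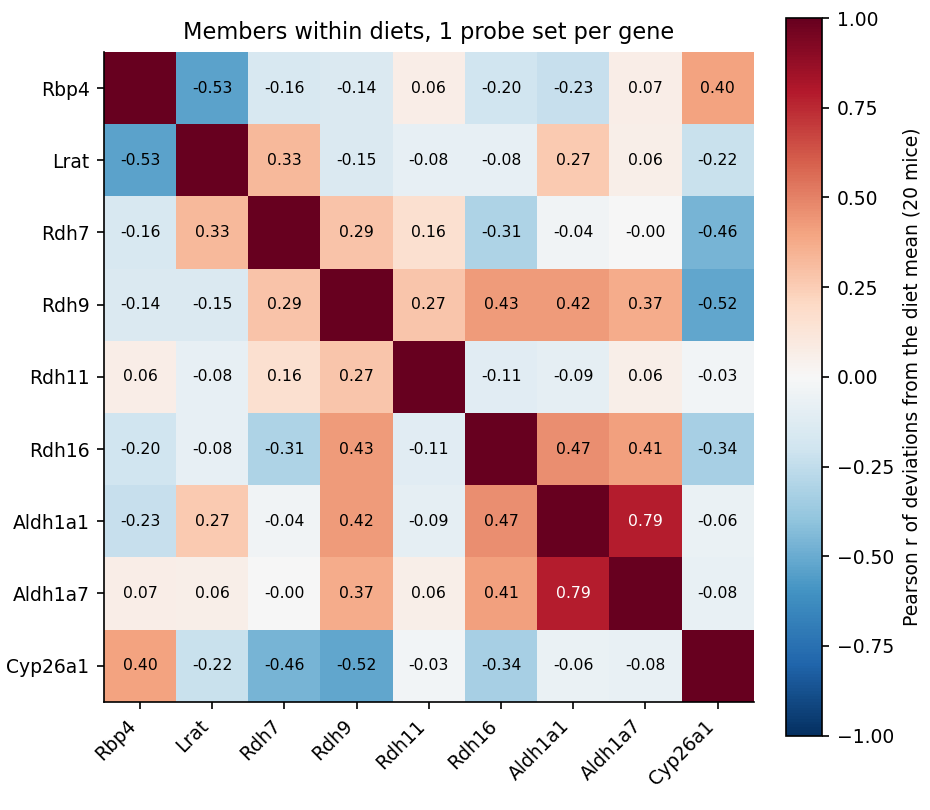
Pearson correlation of deviations from the diet mean over 20 mice for the 9 members, 1 probe set per gene, from blue (negative) through white to red (positive). Aldh1a1 with Aldh1a7 (0.79) is the highest value and Rbp4 with Lrat (-0.53) the lowest.

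The genes most like Rdh9, by Pearson r of deviations from the diet mean over the 20 mice and among 34944 probe sets of other genes, were Fzr1 (r = 0.85, rho = 0.64), Rab40b (0.76, rho = 0.76), Fbxw19 (0.75, rho = 0.73), Perp (0.75, rho = 0.77) and Tmx2 (0.73, rho = 0.62). Of these only Perp passed the test between diets (-2.12, limma adjusted p = 0.0141). The nearest member, Rdh16, came at rank 909. These coefficients are the highest of many and describe the ranking only.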

How the data were processed

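Per the labels' protocols, 200 ng of total RNA from each liver was labelled from the 3′ end for Affymetrix arrays. The authors deposited 1 score per probe set and array; the sources used here do not name the summarisation or normalisation. Members and lists were chosen with earlier results of these data known.

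The comparison of diets used limma 3.58.1 under R 4.3.3, with lmFit and eBayes (two-sided; 0.7785 prior degrees of freedom; no covariate), on 45037 probe sets, leaving out 64 controls, with no filter, and Benjamini-Hochberg adjustment at 0.05. Of these probe sets 34945 had 1 gene symbol, 932 several, and 9160 are unnamed here. The file held 0 columns of other samples. The fit was tested on simulated data with 200 changed probe sets. Of shifts by 1, 2 and 3 SD, 4.48%, 44.8% and 90.9% passed, with 9 false calls. A shift by 1 SD was thus mostly missed, so a member that did not pass is not shown to be unchanged. Correlations used 100000 permutations within diets (20000 without 2 mice). Named were all member probe sets, list genes past the threshold, up to 3 more per list by p, and the 5 probe sets most like the member with the smallest p. The number of arrays limits the precision. Alternatives were array scalings, a filter, variance and weight models, a replicate block, gene summaries, a rank test, a stricter threshold, a spike-in covariate and leaving out each array.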

Additional observations from a re-analysis of the deposited data

Results flagged for a closer look

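Each of the 11 member probe sets was searched in either diet for a mouse set apart by a wide gap (Dixon's 95% bound), which makes 22 groups of 10 mice. There were 3 such groups, and about 1 in 20 would arise by chance. For Rbp4, low-fat replicate 1 was the lowest (gap over range 0.583), and without it the standardised difference was -0.39 (limma adjusted p = 0.931). For Aldh1a1, low-fat replicate 5 was the lowest (0.564), and without it the difference was 0.31 (limma adjusted p = 0.817). For Aldh1a7 the same mouse was the lowest (0.495), and without it the difference was 0.70 (limma adjusted p = 0.513).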

How the results depend on the processing

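The count of member probe sets past the threshold was 0 and became 2 after quantile normalisation (Rdh9 and Cyp26a1, of 8 with differing values), 6 after centring arrays on their medians, and 1 (Rdh9) after centring on standardised values, among the probe sets with a mean above the median, with 1 probe set per gene and with probe sets averaged per gene. All these calls were lower on the high-fat diet. It was 0 in the other 8 settings, of which the one without probe sets that match several transcripts removes Rdh9 itself, and 0 to 1 without 1 array. Median centring lowers nearly all probe sets (median standardised difference -1.29, and -0.41 after quantile normalisation, against 0.04), so calls there say little of single genes. The 7 other pathway probe sets became 74 after median centring, 11 after standardised centring, 3 with 1 probe set per gene, 4 with gene means, and 7 to 9 without 1 array. The 1043 of all 45037 probe sets became 4164 (quantile, of 42361), 38616 (medians) and 2504 (standardised centring). Among the probe sets with a mean above the median 1256 of 22518 passed. With 1 probe set per gene 635 of 18193 genes passed, and with gene means 697 of 18193. The count was 272 with a threshold of 0.01, 567 with the spike-in covariate and 768 to 1124 without 1 array. With the replicate number as a block the count was 538 and no member passed (Rdh9 adjusted p = 0.0845); only 2 of 10 same-numbered pairs correlated above 0.1 and 3 of 20 arrays were nearest to their own number, so the numbers were not taken as pairs. The 1 correlated pair of members became 0 without 2 mice. The sign turned for one probe set of Rdh11 after quantile normalisation (0.14), for Lrat with the mean of its probe sets (0.34), and for Rbp4 with the spike-in covariate (0.26). Without 1 array, values ran from -0.42 to 0.11 for Rbp4, from -0.26 to 0.14 for that Lrat probe set, and from -0.40 to 0.14 for Cyp26a1, all near 0. Causes were not tested.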
